A study of Mus musculus with 12 samples.

Results

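The 9 long noncoding RNAs described here, known from the developing nervous system and drawn from 51912 genes in the count files, were followed through 12 total RNA libraries of mouse cerebral cortex at embryonic day 15.5. They were taken by gene symbol: Malat1, Neat1, Miat, Rmst, Sox2ot, Pantr1, Snhg11, Mir124a-1hg and C130071C03Rik. Of these libraries, 6 came from Emx1-Cre Arid1a conditional mutants and 6 from controls. Arid1a codes for a subunit of BAF complexes, which remodel nucleosomes, and the Emx1 promoter drives Cre in progenitors of the dorsal forebrain, so that interneurons born ventrally, vessels and blood in the same dissection are outside its main lineage. The labels give no allele for the controls and do not say whether they carry Cre. Litter 1 gave mutants 1 and 2 and controls 1 to 4, and litter 2 gave mutants 3 to 6 and controls 5 and 6. Mutant 4 and controls 2 to 5 were male, and the other libraries were female. The labels name no further replicate structure, so p-values measure the spread between these 12 samples.

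Long noncoding RNAs are transcripts that are not translated into a long protein, and many act in the nucleus or as precursors of smaller RNAs. Malat1 lies in nuclear speckles, Neat1 is the scaffold of paraspeckles, and Miat, also called Gomafu, forms its own nuclear bodies in neurons. Sox2ot is transcribed across the locus of Sox2, a transcription factor of neural progenitors, Rmst binds the SOX2 protein in human neural cells, and Pantr1 is a neighbour of the neural transcription factor gene Pou3f3. Snhg11 hosts small nucleolar RNAs, Mir124a-1hg hosts a gene for the neuronal microRNA miR-124, and C130071C03Rik hosts a gene for miR-9, a microRNA of neural progenitors and their progeny. The labels describe depletion of ribosomal RNA and no selection for poly(A) tails, so transcripts without a tail could be read.

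Libraries held 643197 (mutant 1) to 3525121 (mutant 3) counts on genes and detected 15193 to 17868 genes. Depth was uneven between the genotypes. Mutants 1, 2, 4 and 6 held 643197 to 1070000 counts, fewer than any control, at 1476478 to 2815042 counts. Mutant 5 held 2336840 counts. Levels are given as CPM, a gene's counts scaled to a common library size by the trimmed mean of M-values (TMM). Genotype was tested with edgeR's quasi-likelihood test on 10678 genes, with terms for litter and sex and Benjamini-Hochberg adjustment over all of them. Of these genes, 17 were lower and 6 higher in mutants at an adjusted p below 0.05. The targeted gene, Arid1a, had 447 ± 51.0 CPM in the mutants, against 510 ± 42.3 CPM in the controls. Its log2 fold change was -0.30 (adjusted p = 0.277, edgeR quasi-likelihood). Values after ± are SDs, over 6 libraries of each genotype unless another number is given.

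Of the 9 RNAs, 8 were clearly measured and 1 was near the limit of counting. Totals over the 12 libraries ran between 751 counts for Snhg11 and 103343 counts for Malat1, whereas Neat1 had 135 counts in all, with 3 to 19 counts in a library. All 9 passed the filter on low counts in the full comparison.

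Miat is known for repeats of a short motif, and C130071C03Rik for the microRNA it hosts. Both are shown because they define what these transcripts carry. In the longest annotated Miat transcript, of 9163 bases, the motif TACTAAC was present 6 times, or 0.655 copies per kilobase. This motif resembles the branch point of introns, to which the splicing factor SF1 binds. The 200 bases with most copies lie on the minus strand at chr5:112217319-112217518 (mm10) in the last exon, exon 7 of 7, and hold 3 copies, written in capitals.
Miat: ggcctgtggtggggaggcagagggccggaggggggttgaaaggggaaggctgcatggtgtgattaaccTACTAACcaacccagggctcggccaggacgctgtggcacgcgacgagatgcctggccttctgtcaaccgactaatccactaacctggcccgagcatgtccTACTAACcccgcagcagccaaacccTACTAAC

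The motif was searched as spelled on the transcript strand, copies did not overlap another motif, and its reverse complement was found 0 times in Miat. Of 8612 genes of annotated long noncoding types, 3.81% held at least 1 copy in their longest transcript, and of 57135 windows of 200 bases tiled along them 0.541% did. Miat was the 1 gene among them with at least 6 copies. Neat1 held 1 copy, and the other 7 RNAs held 0. A match of letters is a description and not a binding site.

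The mature microRNAs of C130071C03Rik are given from RefSeq (GRCm38.p6), with the seed, bases 2 to 8, in capitals. On the same strand, C130071C03Rik holds Mir9-2, Rmst holds Mir135a-2 and Mir1251, and Sox2ot holds Mir1897, while Mir124a-1hg holds Mir124a-1 and Mir3078. Both arms of miR-9 are printed, and their seeds differ.
miR-9-5p: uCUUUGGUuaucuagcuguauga
miR-9-3p: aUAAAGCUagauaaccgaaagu

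The way overlapping genes were counted bears on what these RNAs can show. Sox2 lies wholly inside Sox2ot on the same strand and had 0 counts in all 12 libraries, although Sox2ot had 26048 counts. The microRNA, small nucleolar and other small RNA genes nested on the same strand in the 9 RNAs were also at 0 throughout. Over the whole annotation, 416 of 419 protein-coding genes (99.3%) that lie wholly inside another gene on the same strand had 0 counts in every library. Among protein-coding genes nested on the opposite strand the number was 281 of 720 (39.0%), and among those that overlap no other gene 3864 of 12076 (32.0%). Sox1, inside Sox1ot, and Neurod1, inside Cerkl, were at 0 as well, as was Pou3f3, the neighbour of Pantr1, inside AC122898.1. A 0 for a nested gene therefore says nothing about its expression in this cortex, and no host can be compared with the gene inside it.

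**Figure D1:**
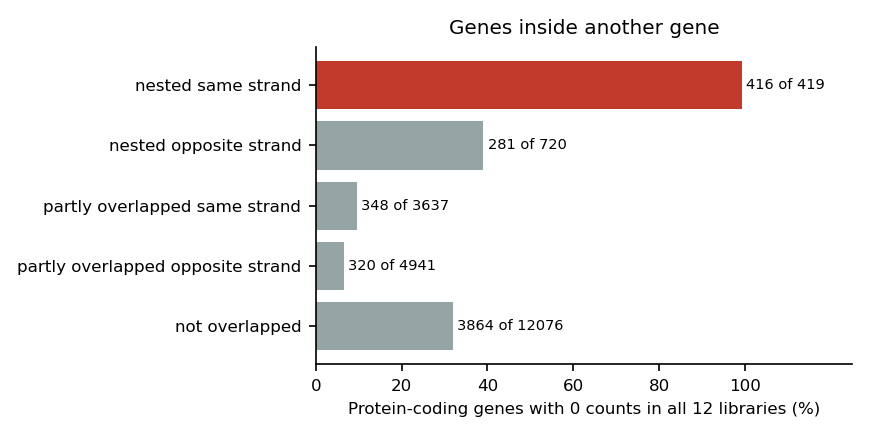
Percentage of protein-coding genes with 0 counts in all 12 libraries (horizontal axis), by how the gene overlaps its neighbours in the annotation (rows), with the numbers of genes beside each bar. Genes wholly inside another gene on the same strand stand at 99.3%, the class to which Sox2 belongs, against 32.0% of genes that overlap no other.

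Several of the 9 RNAs also overlap a noncoding gene on the opposite strand, and the strand setting of the counting is not given in the sources used here. Gm26953 covers 24.3% of the exonic bases of Miat, Gm26700 covers 26.3% of those of Rmst, and Gm33366 covers 23.4% of those of C130071C03Rik. Protein-coding genes nested on the opposite strand were at 0 in 39.0% of cases, near the 32.0% of genes that overlap no other, whereas those on the same strand were at 0 in 99.3%.

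The 9 RNAs covered a wide range of abundance. Per kilobase of annotated exon, Malat1, on chr19:5795690-5802672, led with 649 CPM, and in each of the 12 libraries it was at least 4.71 times as high as C130071C03Rik, the next. C130071C03Rik averaged 126 CPM and Sox2ot 105 CPM per kilobase of exon. These neighbours did not differ beyond their spread, since C130071C03Rik was the higher of the pair in 6 of 12 libraries. Pantr1 at 63.8 CPM, Mir124a-1hg at 47.0 CPM and Miat at 34.3 CPM per kilobase followed. Pantr1 exceeded Mir124a-1hg in 11 of 12 libraries and Mir124a-1hg exceeded Miat in all 12. Rmst averaged 21.6 CPM per kilobase of exon and was below Miat in 9 of 12 libraries. Snhg11 stood at 4.10 CPM and Neat1, lowest in all 12 libraries, at 0.315 CPM per kilobase of exon.

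Exon length alone is a poor denominator for RNAs whose introns may have been counted. Sox2 shares 0 bases with the annotated exons of Sox2ot and still had 0 counts, but whether introns were counted was not tested. Annotated exons make up 2.00% of the 578 kilobases of Sox2ot, on chr3:34104270-34682619, and 3.48% of the 163 kilobases of C130071C03Rik, on chr13:83721381-83884194. Per kilobase of the whole gene span Sox2ot came to 2.11 CPM, C130071C03Rik to 4.40 CPM, Pantr1 to 2.73 CPM and Rmst to 1.70 CPM. Mir124a-1hg at 34.0 CPM and Miat at 19.7 CPM per kilobase of span then ranked next after Malat1. Malat1 and Neat1 are annotated as 1 exon each, so their levels were the same on both scales.

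No RNA of the 9 passed the genotype test (edgeR quasi-likelihood, adjusted p below 0.05), against 0.215% of all genes tested, with 0.159% lower and 0.0562% higher in mutants. DESeq2 and limma-voom also called 0 of 9. At an unadjusted p below 0.05 the number was 1 of 9, against 8.78% of all genes. The CPM of the mutants overlapped that of the controls for each of the 9, whereas 1.26% of tested genes had groups that did not overlap. The median log2 fold change was -0.10 over the 9 RNAs and -0.00088 over all genes tested.

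**Figure D2:**
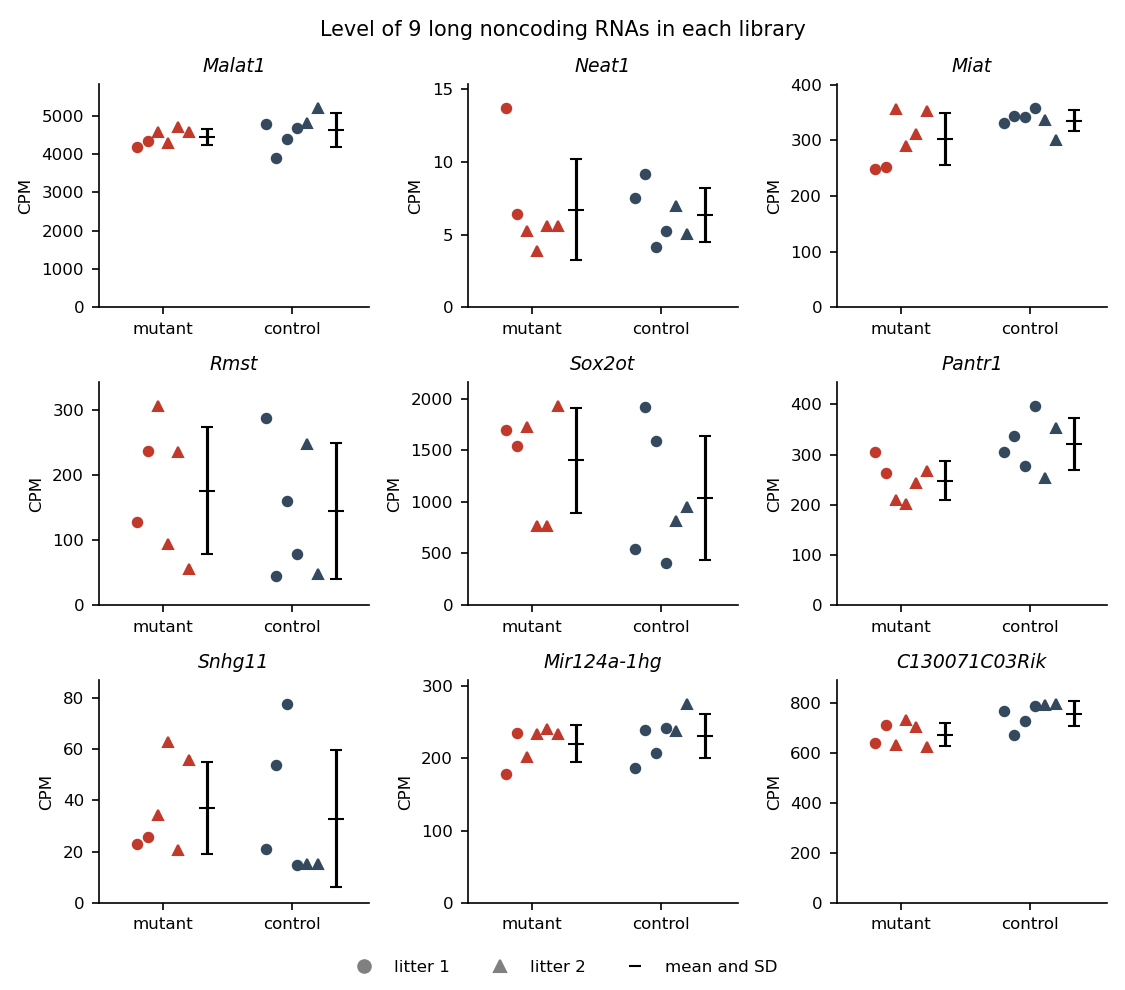
CPM (vertical axis, from 0) of each of the 9 RNAs in 6 mutant libraries (red, left) and 6 control libraries (dark blue, right), with circles for litter 1, triangles for litter 2 and bars for the mean and SD. Mutants and controls overlap in every panel, and over all 12 libraries Snhg11, Rmst and Sox2ot have the largest CVs, at 62.3%, 61.1% and 46.1%.

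**Figure D3:**
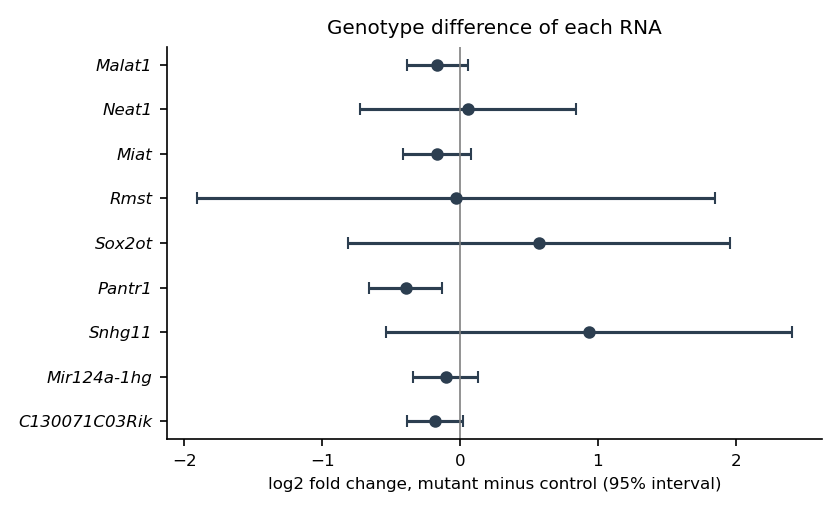
Log2 fold change, mutant minus control (horizontal axis), of each RNA with its 95% interval from edgeR's quasi-likelihood fit. The interval of Pantr1, -0.66 to -0.13, lies below 0, and the other 8 intervals include 0.

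Among RNAs of nuclear bodies, Malat1 was the steadiest of the 9. It had 4180, 4455 and 4700 CPM (lowest, median and highest) in mutants, against 3906, 4730 and 5190 CPM in controls. All 6 mutants thus lay within the range of the controls. Its log2 fold change was -0.16 (SE 0.104, 95% interval -0.38 to 0.06, adjusted p = 0.726 by edgeR). Its coefficient of variation (CV) over the 12 libraries was 7.48%, against 1.24% from counting alone, and at or above that of 2.9% of tested genes. Malat1 by itself took 0.374 to 0.504% of the gene counts of a library. The genes most like it were Cep295 (r = 0.929), Orc2 (r = 0.915) and Chd4 (r = 0.902), a chromatin remodeller.

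Neat1, which lies beside Malat1 on chr19:5824708-5845478, had 3.85, 5.57 and 13.7 CPM in mutants, against 4.14, 6.08 and 9.18 CPM in controls. The value of 13.7 CPM was mutant 1, the shallowest library, and rested on 9 counts. Counting alone would give Neat1 a CV of 32.8% at this depth, and the measured CV was 41.1%. The log2 fold change of 0.06 had a 95% interval of -0.73 to 0.84 (adjusted p = 1.00 by edgeR), so differences inside that interval were not detectable at this depth. Rbx1 (r = 0.924), Ugdh (r = 0.881) and Spice1 (r = 0.857) were most like Neat1, over counts this sparse.

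Transcripts for proteins of the same nuclear bodies were tested beside these RNAs. Of 16 paraspeckle protein genes tested, 0 passed in edgeR, DESeq2 or limma-voom, and 1 had an unadjusted p below 0.05. Their median log2 fold change was -0.07, with 12 negative. Sfpq, an RNA-binding protein needed to build paraspeckles, averaged 450 ± 21.5 CPM in mutants and 456 ± 40.7 CPM in the controls. Of 20 nuclear speckle genes, 0 passed with any of the 3 tools and 3 had an unadjusted p below 0.05. Srrm2, a core protein of speckles, averaged 908 ± 87.8 CPM in mutants and 875 ± 169 CPM in controls.

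Miat, on chr5:112213228-112229395, had 249, 301 and 356 CPM in mutants, against 301, 339 and 357 CPM in controls. Mutants 1 and 2, both of litter 1, were at 249 and 251 CPM, and mutant 4 at 290 CPM, all below the lowest control. Mutants 3, 5 and 6 lay among the controls. For Miat the log2 fold change was -0.17 (SE 0.116, adjusted p = 0.767 by edgeR). Its most alike genes were Rbl2 (r = 0.892), Fam78b (r = 0.879) and N4bp2l2 (r = 0.860). In the same order, Spearman's rho was 0.706, 0.762 and 0.503. Within litter 1, which held the 2 lowest mutants, r was 0.933, 0.990 and 0.937. Within litter 2 it was 0.699, 0.497 and 0.576.

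Read by litter, Miat averaged 250 ± 1.39 CPM in 2 mutants and 344 ± 10.5 CPM in the 4 controls of litter 1, and 327 ± 31.8 CPM in 4 mutants and 318 ± 24.9 CPM in the 2 controls of litter 2. The difference between the litters in the genotype effect was 0.51 on the log2 scale (SE 0.169, unadjusted p = 0.00811), but it did not pass adjustment in edgeR (adjusted p = 0.529). That term called 0% of all genes, and 7.27% of them had an unadjusted p below 0.05. The 2 mutants of litter 1 were also among the 4 shallowest libraries, and the part of depth in this difference was not tested.

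The list of proteins that bind Miat or belong to the same family as its binders held Sf1 and its relatives Khdrbs1, Khdrbs2 and Khdrbs3, which regulate splicing. None of the 6 genes tested passed in edgeR, DESeq2 or limma-voom, and 2 had an unadjusted p below 0.05. Khdrbs2 averaged 565 ± 98.4 CPM in mutants and 867 ± 129 CPM in controls (log2 fold change -0.55, adjusted p = 0.141 by edgeR). Khdrbs3 averaged 253 ± 19.9 CPM in mutants and 326 ± 31.1 CPM in the controls (log2 fold change -0.30, adjusted p = 0.265 by edgeR). The summed CPM of the list was 1394 to 1634 in mutants and 1734 to 2067 in controls, and the ranges did not overlap. Khdrbs2 alone did not overlap either, as was so for 1.26% of single genes. No such share was computed for sums of genes. Khdrbs2 made up most of that gap in the sum, and Khdrbs1 averaged 272 ± 20.2 CPM in mutants and 249 ± 14.5 CPM in the controls. Sf1, whose protein binds the motif in capitals above, averaged 179 ± 10.3 CPM in mutants and 169 ± 37.7 CPM in controls.

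Sox2ot was the second most abundant of the 9 by CPM, and its libraries lay on either side of a wide gap. It had 763, 1619 and 1928 CPM in mutants, against 408, 882 and 1920 CPM in controls. Mutants 1, 2, 3 and 6 with controls 2 and 3 stood at 1546 CPM or more, mutants 4 and 5 with controls 1, 4, 5 and 6 stood at 950 CPM or less, and no library lay between. The split was set at the widest gap in CPM, and whether the libraries form separate clusters was not tested. Each side held both genotypes and both litters. Its CV was 46.1%, of which counting gives 2.40%, and it exceeded the CV of 93.6% of tested genes.

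Given that spread, the log2 fold change of Sox2ot, 0.57, had a 95% interval of -0.81 to 1.96 (SE 0.605, adjusted p = 0.881 by edgeR). It was 0.15 without control 1 and 1.04 without mutant 4. Neither the litter term (adjusted p = 0.827) nor the sex term (adjusted p = 1.00) passed in edgeR, where these terms called 1.31% and 0.00937% of all genes (15.4% and 6.95% at an unadjusted p below 0.05).

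The genes whose log2 CPM was most like that of Sox2ot over the 12 libraries, among 9139 genes averaging at least 10 CPM, were Dlx6os1, Gad2 and Sox1ot. Dlx6os1 is the noncoding partner of the ventral forebrain genes Dlx5 and Dlx6, Gad2 makes the transmitter GABA, and Sox1ot spans the locus of Sox1. Because of the gap in Sox2ot, likeness is given as Pearson's r within the 6 libraries above the gap and the 6 below. It was 0.820 above and 0.969 below for Dlx6os1, 0.928 and 0.941 in the same order for Gad2, and 0.787 and 0.954 for Sox1ot. The libraries share their scaling and depth, and r is a description.

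Dlx6os1 itself had 119 to 489 CPM in mutants and 68.0 to 546 CPM in controls, with control 4 lowest and control 2 highest, the same libraries that were lowest and highest among controls for Sox2ot. Markers of the ganglionic eminences and striatum, which lie next to the cortex in the dissection, varied alike. All 13 were detected, and their summed CPM ran between 2052 and 4288 in mutants and between 1710 and 4074 in controls. The r of this sum with Sox2ot was 0.938 above the gap and 0.762 below. All 15 interneuron markers were detected, with a sum of 1516 to 2442 CPM in mutants and 1326 to 3181 CPM in controls, and r of 0.04 above and 0.37 below. These r leave out the step between the 2 sides of the gap. Across it the interneuron sums did not overlap, with 2307 to 3181 CPM above and 1326 to 2178 CPM below. The striatal sums did overlap, with 2411 to 4288 CPM above and 1710 to 2660 CPM below. On average Erbb4 made up most of the interneuron sum. The 7 striatal and 13 interneuron markers that could be tested had positive log2 fold changes, with medians of 1.11 and 0.42, but 0 passed in edgeR, DESeq2 or limma-voom, and 0 and 1 of them had an unadjusted p below 0.05. With the mean log2 level of the 7 striatal markers as a further term, chosen after the data were seen, the log2 fold change of Sox2ot was 0.30 (SE 0.240, adjusted p = 0.811 by edgeR). In bulk tissue, fewer cells of a type and less RNA per cell cannot be told apart.

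**Figure D4:**
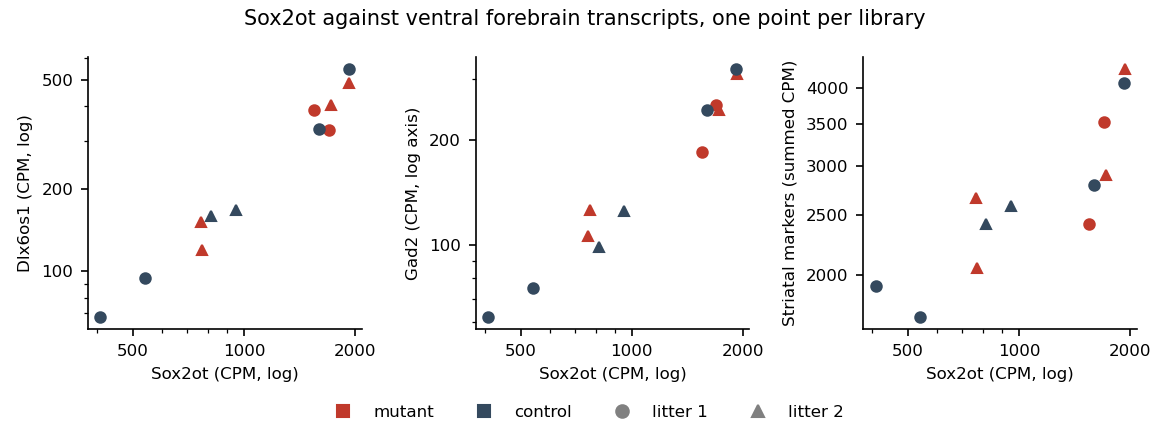
Sox2ot CPM (horizontal log axis) against Dlx6os1 CPM, Gad2 CPM and the summed CPM of 13 striatal markers (vertical log axes) in 6 mutant (red) and 6 control (dark blue) libraries, with circles for litter 1 and triangles for litter 2. Both genotypes lie on either side of the gap between 950 and 1546 CPM of Sox2ot, and in each panel the points run from lower left to upper right. Meis2 makes up most of the striatal sum.

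Rmst, on chr10:92071037-92165170, varied still more. It had 54.8, 181 and 305 CPM in mutants, against 45.2, 120 and 288 CPM in controls. High and low libraries occurred in each genotype and each litter. The CV was 61.1%, against 6.62% from counting, and exceeded that of 98.3% of tested genes. The log2 fold change of -0.03 had a 95% interval of -1.91 to 1.85 (adjusted p = 1.00 by edgeR), which leaves a change of several-fold in either direction unresolved. Its sign turned under other settings, with 0.81 when control 1 was left out.

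Rmst was most like Adamts19, an extracellular protease (r = 0.944, Spearman's rho 0.958 over 12 libraries), then Eya4 (r = 0.934) and Slit2 (r = 0.932), a secreted axon guidance cue. Within the 6 libraries of litter 1 and the 6 of litter 2, r with Adamts19 was 0.959 and 0.938. Adamts19 had 8.99 to 37.1 CPM in mutants and 5.65 to 35.1 CPM in controls, so genotypes overlapped there too. Nedd1, the protein-coding neighbour of Rmst, averaged 14.2 ± 6.52 CPM in mutants and 10.6 ± 2.91 CPM in controls (log2 fold change 0.07, adjusted p = 0.993 by edgeR).

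Factors that work with SOX2 in neural progenitors gave 6 testable genes, of which 0 passed in edgeR, DESeq2 or limma-voom and 1 had an unadjusted p below 0.05. Sox2 and Sox1 themselves were at 0 by the counting pattern above. Hnrnpa2b1, which binds the human Rmst transcript, averaged 495 ± 51.5 CPM in mutants and 465 ± 144 CPM in controls. Pax6, a regulator of cortical progenitors, averaged 77.7 ± 11.9 CPM in mutants and 71.6 ± 20.9 CPM in controls.

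Pantr1, on chr1:42590782-42694842, had the smallest p of the 9. It had 202, 253 and 305 CPM in mutants, against 254, 321 and 397 CPM in controls. All 6 mutants were below the control mean of 321 CPM, although mutants 1, 2 and 6 were above the lowest control. The log2 fold change was -0.39 (SE 0.126, 95% interval -0.66 to -0.13, unadjusted p = 0.00588), and it did not pass adjustment over all genes (adjusted p = 0.276 by edgeR).

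Within litters, Pantr1 averaged 284 ± 30.1 CPM in 2 mutants and 329 ± 51.2 CPM in the 4 controls of litter 1, and 230 ± 30.3 CPM in 4 mutants and 303 ± 69.9 CPM in the 2 controls of litter 2. Fitted alone, the litters gave log2 fold changes of -0.11 and -0.48, with adjusted p of 0.963 and 0.174 in edgeR. Without control 6 the value was -0.21 (adjusted p = 0.783 by edgeR). When genes of low count were not filtered out, Pantr1 passed, at -0.43 (adjusted p = 0.0125 by edgeR). That setting called 199 genes lower and 62 higher over all genes, against 17 and 6 with the filter.

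Pou3f2 was the gene most like Pantr1 by both measures, with r = 0.947 and rho 0.965. It encodes a POU-domain factor of upper-layer neurons and their progenitors and is a paralogue of Pou3f3. Within litters r was 0.921 and 0.949. Pou3f2 averaged 143 ± 25.3 CPM in mutants and 190 ± 52.1 CPM in controls, a description, since the gene was chosen for its likeness to Pantr1. Next came 3110039I08Rik (r = 0.843) and Trak2 (r = 0.834).

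**Figure D5:**
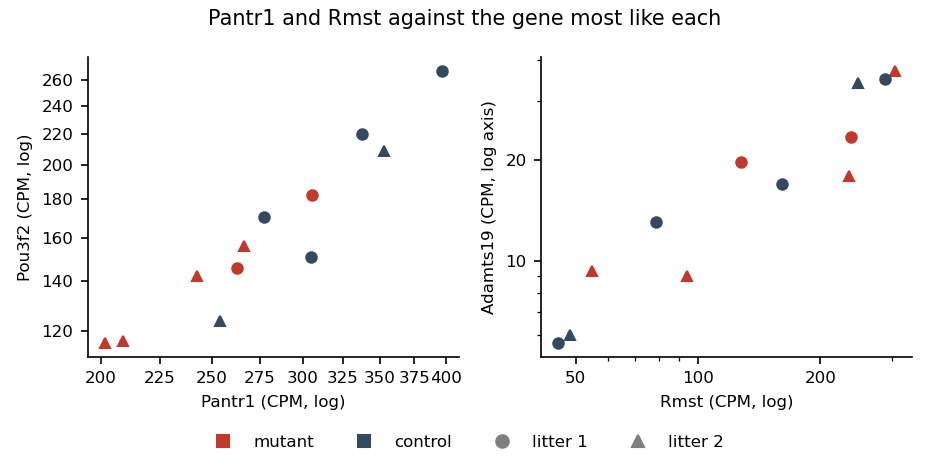
Left, Pantr1 CPM (horizontal) against Pou3f2 CPM (vertical), and right, Rmst CPM against Adamts19 CPM, on log axes, in 6 mutant (red) and 6 control (dark blue) libraries, with circles for litter 1 and triangles for litter 2. In each panel the libraries lie along 1 rising line, with r of 0.947 on the left and 0.944 on the right, and mutants and controls overlap along it.

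The host of Mir9-2, C130071C03Rik, had 623, 672 and 731 CPM in mutants, against 672, 779 and 797 CPM in controls. All 6 mutants were below the control mean of 758 CPM, and controls 2 and 3, at 672 and 728 CPM, lay within the mutants' range. The log2 fold change was -0.18 (SE 0.0961, 95% interval -0.38 to 0.02, adjusted p = 0.641 by edgeR). With a CV of 8.87% it was the second steadiest of the 9. It was most like Palmd (r = 0.897), Celsr2 (r = 0.894), an adhesion receptor of planar cell polarity, and Serinc5 (r = 0.890).

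These genes were chosen for their likeness over all 12 libraries, so their means by genotype are no separate result. Mef2c, the protein-coding neighbour of C130071C03Rik and a transcription factor of cortical neurons, averaged 434 ± 70.7 CPM in mutants and 592 ± 216 CPM in controls, with a log2 fold change of -0.03 once litter and sex were fitted (adjusted p = 1.00 by edgeR).

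Described targets of miR-9, whose seed CUUUGGU is in capitals above, showed no call. Of 16 tested, 0 passed in edgeR, DESeq2 or limma-voom, and 0 had an unadjusted p below 0.05. Their median log2 fold change was -0.04, with 9 negative. Map1b, a microtubule protein of axons, averaged 2580 ± 248 CPM in mutants and 2993 ± 216 CPM in controls. Meis2, a homeobox factor of the ventral forebrain, averaged 2031 ± 356 CPM in mutants and 1753 ± 369 CPM in controls.

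Mir124a-1hg, on chr14:64587331-64593961, had 178, 233 and 241 CPM in mutants, against 187, 238 and 275 CPM in controls. The groups overlapped over nearly their whole range. Between genotypes the log2 difference was -0.10 (SE 0.112, 95% interval -0.34 to 0.13, adjusted p = 0.880 by edgeR), and the CV was 12.1%. Atrnl1 was the gene most like it by both measures (r = 0.902, rho 0.895), followed by Emc10 (r = 0.896) and Kirrel3 (r = 0.865).

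Among described targets of miR-124, which represses non-neuronal genes in neurons, 1 of 17 tested was lower in mutants, against 0.159% of all genes, 0 were higher, against 0.0562%, and 3 had an unadjusted p below 0.05, against 8.78%. The median log2 fold change was -0.16, with 14 of 17 negative, against 5353 of 10678 over all genes. This list was chosen with earlier results of these data known, so these counts are a description. The gene called was Cdk6, a kinase that drives entry into the cell cycle, which fell to 121 ± 5.6 CPM in the mutants, against 165 ± 30.1 CPM in controls, by 0.62 on the log2 scale (SE 0.107, adjusted p = 0.0173 by edgeR). DESeq2 and limma-voom called it too. Lhx2, a transcription factor of cortical progenitors, averaged 120 ± 45.8 CPM in mutants and 178 ± 56.5 CPM in the controls and did not pass (log2 fold change -0.75, adjusted p = 0.668). Mature microRNAs were not analysed here. Of 12 genes that make or use microRNAs 0 passed in edgeR, DESeq2 or limma-voom and 0 had an unadjusted p below 0.05.

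Snhg11, annotated as protein-coding in this release and lying on chr2:158375638-158386145, had 20.6, 29.9 and 62.9 CPM in mutants, against 14.9, 18.0 and 77.6 CPM in controls. Mutants 4 and 6 and controls 2 and 3 were above 50 CPM, and the other 8 libraries were below 35 CPM. Its log2 fold change was 0.94 (SE 0.647, 95% interval -0.53 to 2.41, adjusted p = 0.780 by edgeR). Without the sex term it was 0.38. The term for sex, male minus female, was 1.06 (SE 0.581, adjusted p = 0.764 by edgeR), with controls 2 and 3 male at 53.7 and 77.6 CPM and controls 4 and 5 male at 14.9 and 15.0 CPM.

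Nxph1, a neurexin ligand of interneurons, was most like Snhg11, followed by the synaptic genes Grid1 and Dpp6. Because of the gap between 34.3 and 53.7 CPM, r is given within the 8 libraries below it, where it was 0.931 for Nxph1, 0.815 for Grid1 and 0.709 for Dpp6. Nxph1 had 507 to 971 CPM in mutants and 449 to 867 CPM in controls. Counting alone gives Snhg11 a CV of 14.2%, and the measured CV was 62.3%.

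Levels of the 9 RNAs were also compared with one another across libraries. Of 36 pairs, none passed a permutation test of Pearson's r of log2 CPM after adjustment over the pairs, and the smallest adjusted p was 0.149, for Sox2ot with C130071C03Rik. The libraries lie on either side of a wide gap in Sox2ot, so no pooled r is given for it.

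Together the 9 RNAs took 0.758% ± 0.0636 of gene counts in the mutant libraries and 0.728% ± 0.0403 in the control libraries. The difference had a two-sided exact permutation p of 0.335, or 0.391 adjusted over the 7 shares compared. Genes of all annotated long noncoding types took 3.78% ± 0.155 in mutants and 3.53% ± 0.140 in controls. That difference had an exact permutation p of 0.0173, and 0.0178 when genotypes were exchanged within litters, but 0.0606 after adjustment over the 7 shares. Sex did not enter these permutations, and the sexes are unevenly spread over the genotypes. This share was 3.64 to 3.92% in the female libraries and 3.32 to 3.59% in the male libraries, without overlap. The part of sex in the difference was not tested. The single gene Gm26917 took 0.711% ± 0.0680 in mutants and 0.587% ± 0.0825 in controls (exact permutation p = 0.00866, adjusted p = 0.0606). Without it the share of the long noncoding types was 3.07% ± 0.154 in mutants and 2.94% ± 0.115 in controls (exact permutation p = 0.136). Gm26917 was singled out after its values were seen, and it did not pass the genotype test, at a log2 fold change of 0.14 (adjusted p = 0.855 by edgeR).

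By gene, 364 genes of long noncoding types were tested, 1 was lower and 0 were higher in mutants, against 0.159% and 0.0562% of all genes, and 26 had an unadjusted p below 0.05, against 8.78%. DESeq2 and limma-voom called 2 each, of 95 and 24 called over all genes. Their median log2 fold change was 0.02. The gene called by edgeR, named here after its value was seen, was 3110039M20Rik, which fell to 71.1 ± 4.86 CPM in the mutants, against 120 ± 9.99 CPM in controls, by 0.72 on the log2 scale (SE 0.107, adjusted p = 0.00961 by edgeR). Of 42 further named long noncoding RNAs tested, 0 passed with any of the 3 tools, 3 had an unadjusted p below 0.05, and 27 had positive values. Mir99ahg, host of a microRNA cluster, averaged 1676 ± 281 CPM in mutants and 2038 ± 313 CPM in controls (log2 fold change -0.30, adjusted p = 0.410 by edgeR). Meg3, an imprinted RNA of neurons, averaged 321 ± 110 CPM in mutants and 292 ± 113 CPM in controls (log2 fold change 0.50, adjusted p = 0.794 by edgeR).

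Markers set the tissue and its neighbours beside these levels. Cortical neuron markers summed to 4837 to 5953 CPM in mutants and 5597 to 7163 CPM in controls, with 7 of 8 tested log2 fold changes negative and 0 called by edgeR, DESeq2 or limma-voom (1 at an unadjusted p below 0.05). Intermediate progenitor markers summed to 484 to 641 CPM in mutants and 370 to 560 CPM in controls, and radial glia markers to 479 to 777 CPM in mutants and 342 to 736 CPM in controls, with Sox2 at 0 as above. Thalamic markers summed to 480 to 605 CPM in mutants and 367 to 654 CPM in controls. Endothelial markers summed to 60.4 to 89.4 CPM in mutants and 63.6 to 93.7 CPM in controls. Sums of oligodendrocyte precursor, microglial, meningeal and red blood cell markers stayed at 63.1 CPM or less in each library. Choroid plexus markers reached 178 CPM in control 5, against 15.9 CPM or less in the other 11 libraries.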

How the data were processed

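Per the labels' protocols, total RNA from each dissected cortex was depleted of ribosomal RNA and made into a library by ClickSeq, in which reverse transcription is stopped at random by azido-nucleotides and an adaptor with a random molecular tag is attached by click chemistry. The submitters' processing notes name the build mm10 and the tools STAR 2.5.2a, HTSeq 0.6.1p1 and edgeR 3.20.9, with UMI-tools 0.5.3, bcl2fastq 2.17 and cutadapt 1.13. In the sources used here, annotation release, feature type, counting mode and strand setting are not given. The authors deposited raw counts per Ensembl gene, 1 library per file, without normalization. The 5 closing entries that name no gene, 20.7 to 31.6% of a file's total, were left out.

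Symbols and coordinates came from GENCODE M21. Of 51912 genes, 47648 matched by versioned identifier, 3985 by identifier alone (Malat1 and Neat1 among them) and 279 not at all. Counts were fitted in edgeR 4.0.16 (R 4.3.3) with TMM scaling, a minimum count of 10 (filterByExpr), terms for litter, sex and genotype, and robust quasi-likelihood; log2 CPM used a prior count of 2. limma 3.58.1, DESeq2 1.42.0 and the other settings of the closing part were alternatives. The fits were tested on simulated data with the same spread beyond counting for all genes and no litter or sex effect. That spread was below the one fitted for Rmst, Sox2ot and Snhg11, so the simulation does not cover genes so variable. Shares used exact permutation over 924 regroupings of libraries, correlations 100000 permutations. Of listed genes the 4 most abundant in each list, or 10 for other long noncoding RNAs, and those called could be named, with the 3 genes of highest Pearson r for each of the 9 RNAs. The 9 RNAs and the gene lists were chosen with earlier results of these data known. A CV from counting covers counting error only, and the files do not show how many reads the molecular tags removed.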

Additional observations from a re-analysis of the deposited data

Results flagged for a closer look

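In mutant 1, Neat1 stood at 13.7 CPM, apart from the other 5 mutants, of which the highest was 6.39 CPM. It is the shallowest library, and the value rests on 9 counts.

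In mutant 4, genes of annotated long noncoding types took 3.49% of gene counts, apart from the other 5 mutants, of which the lowest was at 3.76%. Mutant 4 is the 1 male mutant and also among the shallow libraries, with 794716 gene counts. These came from 22 such comparisons of a highest or lowest library with its group, of which chance alone marks about 1 in 20.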

How the results depend on the processing

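Of 258 alternative values of the 9 genotype effects, 234 kept their sign and their side of the threshold, 23 turned sign and 1 crossed the threshold. The 1 was Pantr1 without a filter on low counts (-0.43, adjusted p = 0.0125 by edgeR; 0.0125 to 0.963 over its alternatives). Sign turns, none past the threshold, were as follows on the log2 scale. Neat1 gave -0.10 with no litter term, -0.15 in litter 2 alone, -0.12 without mutants 1 and 4, and -0.20 to 0.21 leaving out 1 library. Rmst gave 0.43 with limma-voom, 0.013 with total counts in place of TMM, 0.33 with no sex term, 0.011 with no litter term, 0.32 with genotype only, 0.64 in litter 2 alone, 0.53 in females alone, 0.34 without mutants 1 and 4, and -0.94 to 0.81 leaving out 1 library. Miat gave 0.035 in litter 2 alone. Mir124a-1hg gave 0.14 in litter 1 alone and -0.19 to 0.071 leaving out 1 library. With the striatal term, added after seeing the data, Neat1 gave -0.068 and Rmst 0.36. The cause was not tested.

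Genes called lower and higher in mutants were 17 and 6. They were 77 and 18 with DESeq2, 199 and 62 with no filter, 63 and 14 with no sex term, 118 and 23 with genotype only, 3 and 2 in litter 1 alone, 41 and 23 in litter 2 alone, 31 and 11 with the striatal term, and 0 and 0 without mutants 1 and 4. Lower calls were 27 without robust fitting and 37 in females, and higher calls were 2 with a minimum count of 30 and 2 with no litter term. Leaving out 1 library gave 5 (without mutant 2) to 45 (without control 4) lower and 0 (without control 6) to 10 (without control 4) higher.

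Per kilobase of gene span in place of exons, levels were 19.7 CPM for Miat, 1.70 for Rmst, 2.11 for Sox2ot, 2.73 for Pantr1, 34.0 for Mir124a-1hg and 4.40 for C130071C03Rik. Of the 27 genes named as most alike, 8 were also among the 3 highest by Spearman's rho. The long noncoding share differed by 0.133 percentage points with Gm26917 left out of the total counts as well (exact permutation p = 0.132; added after seeing the data), and by 0.210 to 0.310 points leaving out 1 library.

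No paired analysis was possible because the replicate numbers follow accession order and pair no samples; litter is a term of the fit. Neat1 was filtered out, and gave no value, with a minimum count of 30, at equal depth and without control 1. Depth limits Neat1 most, and spread between libraries limits Rmst, Sox2ot and Snhg11.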
